A study of Homo sapiens with 4 samples.

Results

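Knockdown of POTEF-AS1 in LNCaP cells kept without androgen was described by the difference between a pair of arrays, siPOTEF-AS1 minus siControl, both from vehicle-treated cells. LNCaP is a human prostate cancer line that responds to androgen, and POTEF-AS1 is a long noncoding RNA transcribed antisense to POTEF, a member of the POTE ankyrin repeat family. The genes described are those whose probe sets carried a single gene symbol in the deposited table. These were 2540 of 33297 probe sets, or 9.51% of the 26722 with an annotated transcript, and they represented 2447 genes once the brightest probe set of each symbol was kept. Cells had been grown with 10% serum and then held for 3 days without phenol red in 2.5% charcoal-stripped serum, and the siRNA was given 48 h before hormone or vehicle. The siControl vehicle group and the siPOTEF-AS1 vehicle group both received ethanol. A second pair of arrays, siControl and siPOTEF-AS1 cells with 10 nM dihydrotestosterone (DHT, the potent natural androgen), shares no array with the vehicle pair and is given beside it as the other knockdown measurement. Each group was 1 array, and 1 control siRNA and 1 siRNA label against the target were used, so that effects of the target and of the siRNA itself cannot be told apart. None of the probe sets (0) named POTEF-AS1, so the knockdown itself was not checked here.

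Antisense long noncoding RNAs can act on the neighbouring gene of the opposite strand or on distant genes through bound proteins. LNCaP cells depend on the androgen receptor, a transcription factor that DHT activates, and stripped serum removes most steroid hormone from the medium. The vehicle pair therefore compares cells with and without the siRNA against POTEF-AS1 under low androgen.

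The promoters of 3 genes that lead the results are shown first, because they let a reader set the proximal sequence of the gene with the largest increase in vehicle among those at or above the signal floor defined below, and of the coding genes that moved with both treatments beside their values. They are the RefSeq promoter windows of build GRCh38.p14, from 250 bases before to 50 after the most upstream listed start, written 5′ to 3′ on the gene's strand, with every GC box (GGGCGG, or CCGCCC on the other strand) in capitals. The windows are chr2:8681806-8682105 on the plus strand for ID2, chr6:110815806-110816105 on the minus strand for CDK19 and chr11:22829752-22830051 on the minus strand for SVIP. CDK19 and SVIP each have 3 listed starts.
ID2: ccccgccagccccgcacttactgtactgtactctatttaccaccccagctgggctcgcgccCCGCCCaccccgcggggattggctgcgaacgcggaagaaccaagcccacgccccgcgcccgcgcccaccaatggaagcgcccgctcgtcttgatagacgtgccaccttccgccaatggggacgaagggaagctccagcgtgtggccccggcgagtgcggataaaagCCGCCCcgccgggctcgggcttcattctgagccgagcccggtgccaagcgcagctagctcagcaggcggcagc
CDK19: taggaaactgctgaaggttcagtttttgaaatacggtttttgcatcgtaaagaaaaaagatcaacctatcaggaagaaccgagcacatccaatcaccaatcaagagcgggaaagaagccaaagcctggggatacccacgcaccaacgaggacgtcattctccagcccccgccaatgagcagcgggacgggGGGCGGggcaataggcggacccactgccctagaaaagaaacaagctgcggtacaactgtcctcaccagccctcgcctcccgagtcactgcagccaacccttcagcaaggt
SVIP: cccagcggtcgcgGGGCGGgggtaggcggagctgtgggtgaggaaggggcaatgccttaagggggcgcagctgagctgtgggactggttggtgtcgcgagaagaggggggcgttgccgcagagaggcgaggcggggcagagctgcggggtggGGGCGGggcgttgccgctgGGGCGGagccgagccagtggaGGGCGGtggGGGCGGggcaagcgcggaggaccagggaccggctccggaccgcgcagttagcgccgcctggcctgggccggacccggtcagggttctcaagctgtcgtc

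GC content was 69.0% in the ID2 window, 54.0% in the CDK19 window and 74.3% in the SVIP window, against a median of 58.7% over 35116 promoters of the same length. The SVIP window held 5 GC boxes, the ID2 window 2 and the CDK19 window 1, and 45.0% of all promoters held at least 1. The CCAAT box (CCAAT, or ATTGG on the other strand) occurred 3 times each in the ID2 and CDK19 windows and 0 times in that of SVIP. It occurred in 34.6% of all promoters. The androgen receptor half-site AGAACA, searched on both strands, was in none of the 3 windows and in 14.8% of all promoters. The core promoter element TATAAA, in 11.5% of all promoters when both strands were searched, was in none of the 3 either. These letter matches describe the windows alone. Of the 41 genes chosen by size of difference, 13 had a promoter in the table.

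Values are log2 signals, and every difference below is siPOTEF-AS1 minus siControl on the log2 scale unless named as a fold. Over the 2447 genes the vehicle differences had a median of -0.02 and ran from -1.13 to 1.17. They lay within 0.25 of 0 for 77.5% of the genes. Their robust SD (the scaled median absolute deviation) was 0.18, close to the 0.17 of the DHT pair. Over all probe sets the vehicle arrays correlated with r = 0.994 and the DHT arrays with r = 0.995. The array medians were 6.77 for siControl vehicle, 6.72 for siPOTEF-AS1 vehicle, 6.73 for siControl DHT and 6.75 for siPOTEF-AS1 DHT, so that the knockdown vehicle array was the lowest. A signal floor was set at 6.44, the median over genes of their 4-array mean, which put 1224 genes at or above it and 1223 below. Levels below it were not shown to be above background, and no fold is given there.

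At 1.5-fold, 18 genes were higher with knockdown in vehicle (0.736% of those measured) and 38 were lower (1.55%). The same threshold in the DHT pair gave 23 higher (0.94%) and 19 lower (0.776%), and over all probe sets in vehicle it gave 1.72% higher and 1.88% lower. With each array centred on its median over all probe sets, the vehicle split became 28 higher and 25 lower. The share of genes past the threshold was lowest in the brightest genes. Over 5 classes of equal size it was 3.06% in the dimmest, 4.7% in the next, then 1.84% and 1.02%, and 0.816% in the brightest. A mean at or above the floor was reached by 3 higher genes (0.245% of those at this brightness) and 8 lower genes (0.654%), and below it lay 15 higher (1.23%) and 30 lower genes (2.45%). Both vehicle values were below the floor in 15 of the 18 and in 25 of the 38. At 2-fold there were 3 higher genes (0.123%) and 1 lower gene (0.0409%), all below the floor, and at 1.3-fold 67 higher (2.74%) and 150 lower genes (6.13%). The genes nearest the 1.5-fold threshold were KDM8 (0.59) inside and OR52K3P (0.58) outside on the higher side, and BPIFB9P (-0.59) inside and RNA5SP331 (-0.58) outside on the lower side.

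**Figure D1:**
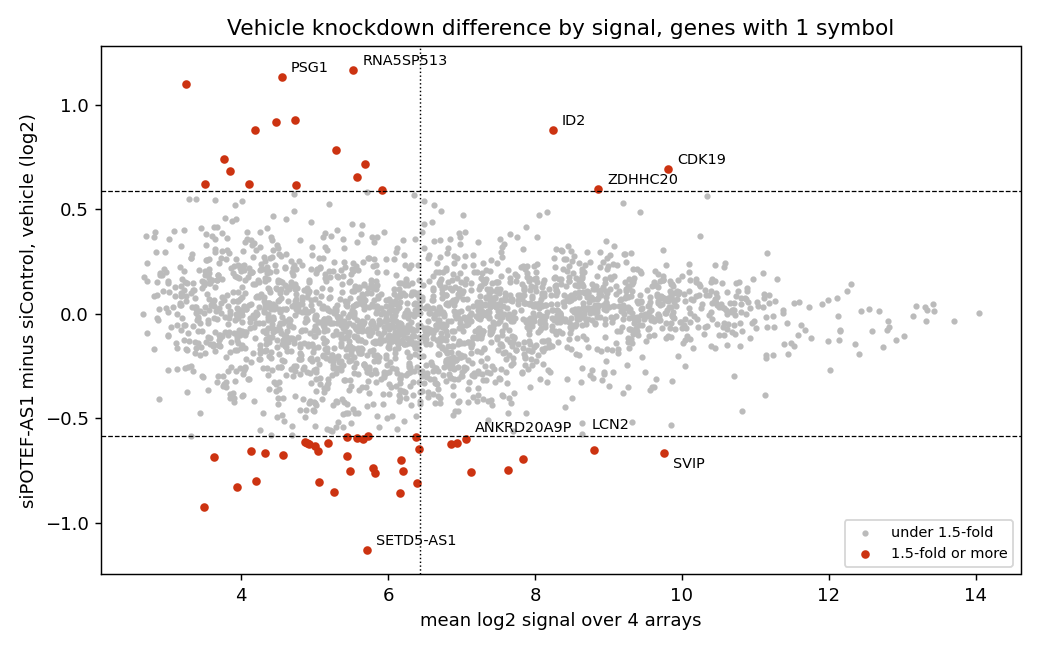
Each point is 1 of 2447 genes, with its mean log2 signal over 4 arrays on the horizontal axis and its siPOTEF-AS1 minus siControl log2 difference in vehicle on the vertical axis. Dashed lines mark 1.5-fold and the dotted line the floor of 6.44. Red points, 18 above and 38 below, thin out to the right of the floor, where ID2, CDK19 and ZDHHC20 are the 3 above the upper line.

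The knockdown differences of both pairs had little in common over all genes. Pearson's r between them was -0.09 (rho -0.11) over 2447 genes and 0.05 (rho -0.02) over the 1224 at or above the floor, as a description across genes, which are not independent replicates. Of the 18 higher genes, 9 had the same sign in DHT and 1 was again 1.5-fold higher. Of the 38 lower genes, 11 had the same sign and 3 were again 1.5-fold lower, while 2 of each direction were 1.5-fold the opposite way. Among genes at or above the floor, 19 were 1.3-fold higher in vehicle (1.55%), 13 of them with the same sign in DHT, and 47 were lower (3.84%), 14 of them with the same sign. By any amount 46.8% of all genes were higher in vehicle and 54.4% in DHT, and 50.1% and 52.3% of those at or above the floor.

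ID2 had the largest difference of any gene at or above the floor. It encodes a helix-loop-helix protein that lacks a DNA-binding domain and holds other helix-loop-helix factors off DNA (ENSG00000115738; GRCh37, chromosome 2, 8818975 to 8824583, plus strand; its promoter window is printed above). Its log2 signal was 7.13 in siControl vehicle, 8.01 in siPOTEF-AS1 vehicle, 8.77 in siControl DHT and 9.05 in siPOTEF-AS1 DHT. The vehicle difference of 0.88 is 1.84-fold. In DHT, where both arrays were brighter than either vehicle array, the difference was 0.29.

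CDK19 was higher with knockdown with both treatments. It encodes a kinase of the module that reversibly binds Mediator, the complex that links transcription factors to RNA polymerase II (ENSG00000155111; GRCh37, chromosome 6, 110931181 to 111136519, minus strand). Its signals were 9.51 and 10.20 in vehicle and 9.46 and 10.06 in DHT, siControl first. Both knockdown arrays lay above both siControl arrays, by 0.69 (1.62-fold) in vehicle and 0.59 (1.51-fold) in DHT. The other Mediator genes measured, MED7 and MED8, differed by 0.03 each in vehicle.

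ZDHHC20, a palmitoyltransferase gene, had 8.52 in siControl vehicle and 9.12 in siPOTEF-AS1 vehicle, and 8.69 and 9.10 in DHT. Its vehicle difference of 0.60 was just past 1.5-fold and its DHT difference was 0.41. GNAQ, which encodes a G protein alpha subunit that activates phospholipase C, went both ways. It had 8.73 and 9.26 in vehicle, a difference of 0.53, but 9.51 and 9.28 in DHT, a difference of -0.22.

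Another 10 of the 15 largest higher genes at or above the floor differed by 0.42 to 0.54 in vehicle. TMEM117 had 6.74 in siControl vehicle and 7.24 in siPOTEF-AS1 vehicle, and was 0.45 higher in DHT too. B4GALNT1, which encodes a ganglioside synthase, had 8.14 and 8.63 and differed by 0.16 in DHT. ATE1, the arginyltransferase gene of the N-degron pathway, had 9.17 and 9.66, with 0.23 in DHT, and CEP120, a centriole elongation gene, had 7.66 and 8.13, with 0.29. METTL2B, an RNA methyltransferase gene, was 0.47 higher in vehicle and -0.26 in DHT. The rest were the pseudogene ARPC3P1 (0.54), FLJ42627 (0.52), RNA5SP506 (0.44), SCGB2B2 (0.43) and FAM98B (0.42), the last with -0.01 in DHT.

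SVIP was the brightest of the genes 1.5-fold lower. It encodes a small inhibitor of endoplasmic reticulum-associated degradation that binds the ATPase VCP. Its signals were 10.25 in siControl vehicle, 9.58 in siPOTEF-AS1 vehicle, 9.99 in siControl DHT and 9.22 in siPOTEF-AS1 DHT. Both siControl arrays were above both knockdown arrays, with differences of -0.67 in vehicle (1.59-fold) and -0.77 in DHT (1.70-fold). The other genes listed for the endoplasmic reticulum, both chaperone-related, had vehicle differences of 0.17 for DNAJB11 and -0.15 for MANF, and the median over the 3 genes was -0.15.

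ANKRD20A9P, an ankyrin repeat pseudogene related in sequence to the POTE genes (GRCh37, chromosome 13, 19390858 to 19446107, minus strand), had 7.99 and 7.39 in vehicle and 6.75 and 6.11 in DHT. The differences were -0.60 and -0.64, with the last value below the floor. It fell under 1.5-fold in vehicle when arrays were centred (-0.54) or quantile normalised again (-0.58). CDK19, SVIP and ANKRD20A9P were the 3 genes at or above the floor that passed 1.5-fold the same way with both treatments. The fourth such gene, the Y RNA pseudogene RNY4P26 (-0.80 and -1.19), had all 4 values below the floor.

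**Figure D2:**
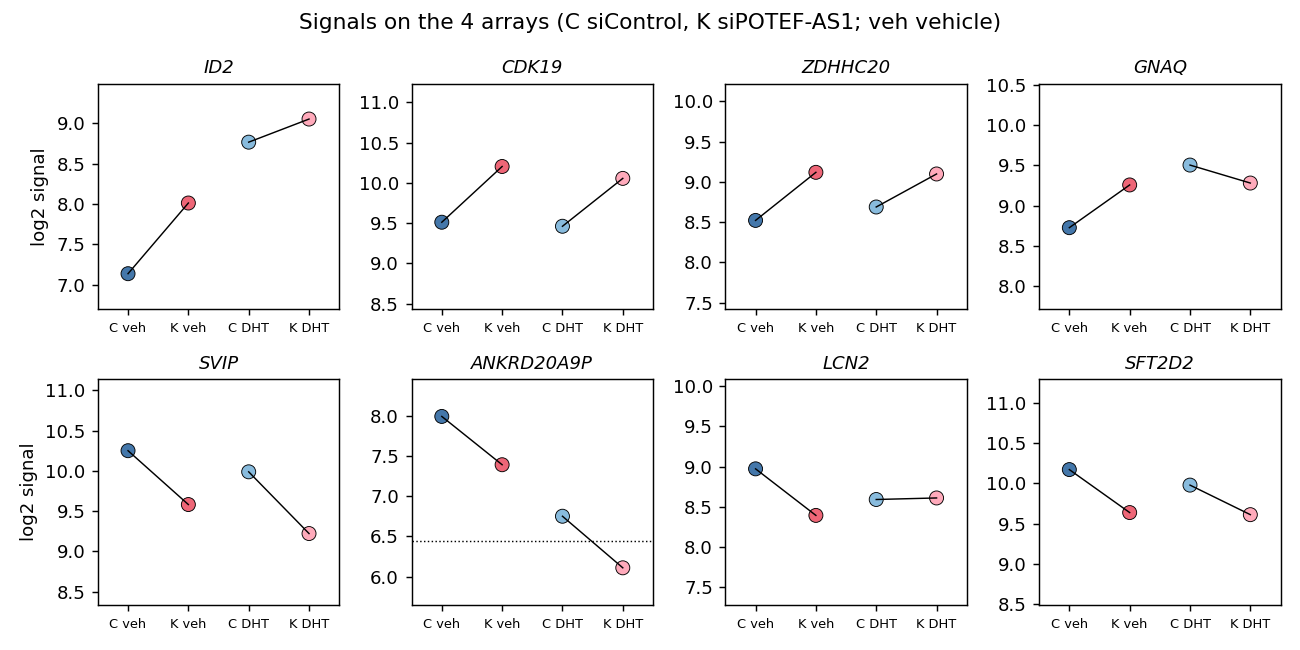
Log2 signals of 8 genes on the 4 arrays, 1 point per array, with lines joining siControl (C) and siPOTEF-AS1 (K) of the same hormone treatment and the floor of 6.44 dotted where it falls in the axis range. The lines of CDK19 and SVIP run the same way in both treatments, from 9.51 to 10.20 and from 10.25 to 9.58 in vehicle, whereas LCN2 drops from 8.97 to 8.40 in vehicle and is level in DHT.

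Most other lower genes at or above the floor differed more in vehicle than in DHT. They were chosen by the size of the vehicle difference, so smaller differences in DHT are partly built into the choice. LCN2, which encodes the iron-siderophore-binding lipocalin secreted by epithelia and neutrophils (GRCh37, chromosome 9, 130911797 to 130915418, plus strand), had 8.97 and 8.40 in vehicle but 8.59 and 8.61 in DHT. The vehicle difference was -0.58, just under 1.5-fold, and past it with quantile normalisation again and with the intensity trend removed (-0.62 each). The knockdown vehicle array was the lowest of the 4. SFT2D2, a vesicle transport gene, had 10.17 and 9.64 in vehicle and 9.98 and 9.61 in DHT, so that both knockdown arrays were below both siControl arrays (-0.53 and -0.37). Among uncharacterised loci, LOC101060546 had 8.05 and 7.35 in vehicle and 7.90 and 8.07 in DHT. LOC100996689 had 9.07 and 8.41, then 8.84 and 8.91. LOC100996378 had 7.94 and 7.38, then 7.40 and 8.07, a difference of -0.56 in vehicle and 0.67 in DHT. In these 3 loci the knockdown vehicle array was the lowest of the 4. LOC441268 (-0.52), LINC00686 (-0.51) and FLJ16171 (-0.48) were likewise lower in vehicle and 0.09 to 0.26 higher in DHT.

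The rest of the 15 largest lower genes at or above the floor were copies of 5S ribosomal RNA, the small RNA of the large ribosomal subunit that RNA polymerase III makes. RNA5SP440 (GRCh37, chromosome 17, 36888055 to 36888173, minus strand) had 7.48 and 6.72 in vehicle and 7.31 and 7.02 in DHT. RNA5SP473 had 7.95 and 7.21 in vehicle and 7.78 and 7.57 in DHT. Their vehicle differences were -0.76 and -0.75. RNA5SP116 had 7.11 and 6.48, RNA5SP218 had 7.08 and 6.46, and RNA5SP412 had 8.76 and 8.24, and these 3 were 0.09 to 0.31 higher with knockdown in DHT. RNA5SP116 (-0.63) and RNA5SP218 (-0.62) came under 1.5-fold with each of the 3 scalings tried.

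The 5S genes, nearly all pseudogene copies of 1 short sequence, were the largest noncoding class. Probes for such copies may read each other's transcripts, so that the copies are not independent measurements. Of 258 copies, 4 were 1.5-fold higher and 11 lower, 5.81% in all, against 2.29% of all genes. At or above the floor were 56 copies, of which 47 were lower by any amount and 9 higher. Their median difference was -0.23, against 0.00 over all genes at or above the floor. In DHT the median of the same 56 was 0.09, and 43 were higher. In 36 copies the sign changed from lower in vehicle to higher in DHT. Set against each copy's own 4-array mean, the median was 0.05 on the siControl vehicle array, -0.17 on the siPOTEF-AS1 vehicle array, 0.03 on the siControl DHT array and 0.11 on the siPOTEF-AS1 DHT array. The siPOTEF-AS1 vehicle array was the lowest of the 4 for 39 of the 56 (69.6%), against 340 of all 1224 genes (27.8%). The vehicle median stayed below 0 under each scaling tried, at -0.17 with arrays centred, -0.19 with quantile normalisation again and -0.20 with the intensity trend removed. That array also had the lowest median over all probe sets, and the part of its level in the result was not tested beyond these scalings.

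Long intergenic, antisense, intronic and uncharacterised LOC loci, grouped by their symbols, showed the same array as the low one. Of 211 such genes, 62 were higher by any amount and 149 lower. At 1.5-fold 0 were higher and 8 lower (3.79%, against 1.55% of all genes). At or above the floor were 80, with a median of -0.09 in vehicle and 58 lower, and with 0.08 in DHT and 58 higher. For 42 of these 80 (52.5%) the siPOTEF-AS1 vehicle array was the lowest. The vehicle median was -0.04 with arrays centred and -0.07 or -0.08 under the other scalings. Below the floor SETD5-AS1, whose current symbol is THUMPD3-AS1, had 6.36 and 5.23 in vehicle and 5.48 and 5.77 in DHT, the largest difference downward of any gene (-1.13).

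Other small RNA classes were dim, with few genes at or above the floor. Of 72 small nuclear RNA genes, the RNAs of the spliceosome and their pseudogenes, 37 were higher and 35 lower, and the median was 0.02. The 13 at or above the floor had a median of -0.13, with 3 higher. Among 34 genes of 7SL RNA, the RNA of the signal recognition particle, and of Y RNA, which binds the Ro autoantigen, 2 were 1.5-fold higher and 1 lower, and the median was -0.01. The 7 of them at or above the floor had a median of -0.09, with 1 higher. With arrays centred the medians at or above the floor were -0.07 for small nuclear RNA and -0.03 for 7SL and Y RNA, and in DHT they were 0.00 and 0.04. The 6 small nucleolar RNA genes, which guide RNA modification, had a median of 0.18, with 4 higher. The 4 of them at or above the floor had a median of 0.03, with 2 higher. The 8 mitochondrial tRNA genes were all lower in vehicle, from -0.42 (MT-TD, below the floor) to -0.02 (MT-TP), with a median of -0.14, and all 8 were also lower in DHT. MT-TL2 had 11.13 and 10.83 in vehicle and 10.46 and 10.40 in DHT, and MT-TF had 13.42 and 13.39, then 13.26 and 13.23. With arrays centred 6 of the 8 were lower in vehicle. Means at or above the floor were reached by 6 of the 8. Of all 2447 genes, 46.8% were higher by any amount in vehicle and 54.4% in DHT.

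By the biotype the table gave, 552 protein-coding genes had a median of 0.01, with 3 genes 1.5-fold higher and 3 lower (1.09%). The 188 pseudogenes had a median of -0.04, with 1 higher and 5 lower (3.19%), and the 263 rRNA genes a median of -0.07 (5.7%). No biotype was given for 1322 genes, of which 1.82% passed 1.5-fold. The protein-coding genes were brighter as a class, 360 of the 552 at or above the floor against 57 of the 263 rRNA genes.

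Among families grouped by symbol, the larger coding families had medians near 0, and the keratin genes a median below 0. None of the 51 zinc finger ZNF genes, 26 histone genes or 22 solute carrier genes passed 1.5-fold, and their medians were -0.01, -0.02 and -0.02. The 39 ribosomal protein genes and pseudogenes had a median of 0.01, and the only one past 1.5-fold was the pseudogene RPS6P6 (-0.75, below the floor). The 92 olfactory receptor genes and pseudogenes, sensory genes of which 6 were at or above the floor, had a median of 0.01 with 2 past 1.5-fold, both lower, OR8B1P (-0.83) and OR14I1 (-0.68). The 6 at or above the floor had a median of -0.13, with 1 higher. The 6 keratin genes and pseudogenes, of the intermediate filaments of epithelia, had a median of -0.14 in vehicle, with 5 lower, and -0.09 with arrays centred. KRT5 (-0.59) was the only keratin past 1.5-fold, and KRT15 (-0.20) and KRT35 (-0.19) came next. The 5 lower ones had means below the floor. Only 1 of the 6, KRT18P20, had a mean at or above it, and it was higher (0.07). The 15 kinesin, tubulin and dynein genes had a median of -0.05, with 1 past 1.5-fold, and the 15 respiratory chain genes one of 0.05, with none. The 12 proteasome and ubiquitin conjugation genes and the 9 translation factor genes had medians of 0.00 and 0.01, with none past 1.5-fold. The 5 protocadherin beta genes lay between -0.17 and 0.17 in vehicle. Centring the arrays moved the median of all genes from -0.02 to 0.04, so list medians this near 0 have no settled sign.

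The POTE genes, primate-specific and closely alike, are the family of the target's locus, and their probes may read each other's transcripts. POTEF had 6.30 in siControl vehicle and 6.64 in siPOTEF-AS1 vehicle, a difference of 0.34 across the floor. In DHT it had 7.72 in siControl and 8.23 in siPOTEF-AS1 cells, a difference of 0.51. POTEG, POTEI and POTEJ differed by 0.03, 0.01 and -0.00 in vehicle and by 0.42, -0.07 and 0.26 in DHT. Coordinates were given for 1124 of the 2447 genes. Of these, 6 lay within 5 Mb of POTEF on chromosome 2, POTEF included, and none of the 6 passed 1.5-fold. TUBA3E, a tubulin gene 71178 bases from POTEF, differed by -0.04, and the other 4 were RNA pseudogenes with differences from -0.26 (RNA5SP104) to 0.06 (RNA5SP103). The 57 genes with coordinates on chromosome 2 had a median of -0.03, within the range of chromosome medians from -0.13 to 0.04.

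Genes known to be induced by androgen in prostate cells differed little with knockdown in vehicle. Of 10 measured, 7 were higher by any amount, none passed 1.5-fold and the median was 0.09. CENPN, a centromere gene, had 9.71 and 9.25 in vehicle, a difference of -0.47, and 12.22 and 12.11 in DHT. MICAL1, an actin-oxidising monooxygenase gene, had 7.34 and 7.64 (0.30), and LRIG1, which restrains receptor tyrosine kinase signalling, had 9.47 and 9.70 (0.23). IGF1R, a growth factor receptor gene, had 8.81 and 8.92 in vehicle beside 11.36 and 11.32 in DHT. SGK1, a serum- and glucocorticoid-regulated kinase gene, had 5.01 and 5.07 in vehicle, both below the floor. The tissue kallikreins KLK15, KLK1 and KLK14 differed by 0.17, -0.14 and -0.08. For CENPN, IGF1R and SGK1 the vehicle difference was small beside the gap between the vehicle and DHT arrays. This did not hold for KLK1 and KLK14 on the siControl arrays. KLK1 had 6.98 in siControl vehicle and 6.97 in siControl DHT, and KLK14 had 6.57 and 6.61. KLK15 was brighter in DHT than in vehicle on the siControl arrays, but nearly level on the siPOTEF-AS1 arrays (7.06 in vehicle and 7.09 in DHT).

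Interferon-stimulated genes, which restrict viruses, were bright and differed little in vehicle. Of 9 measured, grouped by their symbols, 5 were higher and 4 lower, and the median was 0.02. OASL, an oligoadenylate synthetase-like gene, had 12.24 and 11.97 (-0.27) and IFI44L had 12.56 and 12.37 (-0.19). IFI16, a DNA sensor gene, had 8.17 and 8.32 in vehicle and 7.51 and 8.42 in DHT. SP140L had 8.26 and 8.17, then 7.25 and 8.46, and BST2, which tethers budding virus particles, differed by 0.06 in vehicle and had 10.68 and 11.44 in DHT. In DHT all 9 were higher with knockdown, with a median of 0.19, against 52.3% of all genes at or above the floor. For IFI16, SP140L and BST2 the siControl DHT array was the lowest of the 4. The difference between treatments was not tested.

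Genes of other signalling routes had few measured members. TNFAIP3, which encodes an inhibitor of NF-kB signalling, had 7.40 in siControl vehicle and a difference of -0.40, and differed by 0.10 in DHT. JUN, a subunit of the AP-1 transcription factor and the only measured gene of the Toll-like receptor family list, had 9.43 and 9.71 in vehicle (0.29) and 8.66 and 9.06 in DHT (0.40). BCL2, an inhibitor of apoptosis and the only gene measured of its family list, had 6.50 on both vehicle arrays. The sterol genes STARD4 and NSDHL differed by -0.16 and 0.10.

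**Figure D3:**
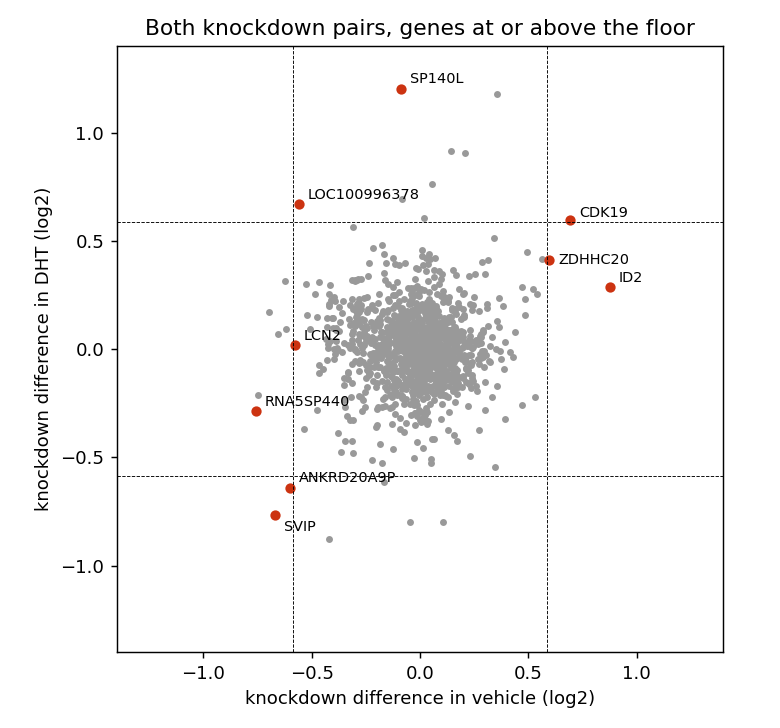
Log2 knockdown differences of the 1224 genes at or above the floor, in vehicle on the horizontal axis and in DHT on the vertical axis, with 1.5-fold marked by dashed lines and 9 genes named. CDK19 lies past both lines at upper right, SVIP and ANKRD20A9P at lower left, and ID2 (0.88 and 0.29) passes the vehicle line alone. The cloud as a whole has r = 0.05.

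A GO biological process term, a curated label of the process a gene takes part in, was given for 1144 genes. Of these, 10 passed 1.5-fold (0.874%), 6 higher and 4 lower, against 44 of 1205 genes without a term (3.65%). Genes with and without a term were not matched for signal. Genes below the floor passed more often (1.23% higher and 2.45% lower) than those at or above it (0.245% and 0.654%). Terms were collected by keyword into 29 lists, whose members overlap. The 21 lists of 20 or more genes had medians between -0.05 and 0.08, and 20 of the 29 lists held no gene past 1.5-fold. Against the 50.1% of all genes at or above the floor that were higher by any amount, the shares on such lists went from 40.9% for cell adhesion to 79.4% for sterol and lipid metabolism among the lists of 20 or more genes with over 20 at or above the floor.

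Cell cycle and mitosis genes numbered 81, with a median of 0.04, 53 higher, and 2 past 1.5-fold, both higher. These were CDK19 and KDM8, a gene of the JmjC dioxygenase family, with 5.55 and 6.14 in vehicle, below the floor. Apoptosis genes numbered 89, with a median of -0.00, 44 higher and none past 1.5-fold, although LCN2 passed it under the scalings given above. The largest differences there were LCN2 (-0.58), RNF144B (0.55, below the floor) and C1orf138 (-0.54, below the floor). Of 224 genes of regulation of transcription, KDM8 was the only one 1.5-fold higher and S100A1, a calcium-binding protein gene with 5.69 and 5.10, the only one lower, both below the floor.

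Sterol and lipid metabolism genes, 57 in all, had a median of 0.08 with 36 higher, and 27 of the 34 at or above the floor were higher. FLJ44477 (-0.68, below the floor) was the only gene of this list past 1.5-fold. Vesicle and protein transport genes had a median of 0.04, with 48 of 74 higher, although SFT2D2 (-0.53) and CDK5R2, an activator gene of CDK5 (7.77 and 7.34), were its largest differences. Of 32 genes of mitochondria and respiration 22 were higher, with a median of 0.05. Among 94 inflammation and immune response genes the median was -0.01, and the 2 past 1.5-fold, SIGLEC16 (0.78) and CD200R1 (0.62), were below the floor. Translation (38 genes, median 0.02) and DNA replication and repair (56 genes, median 0.01) held no gene past 1.5-fold.

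**Figure D4:**
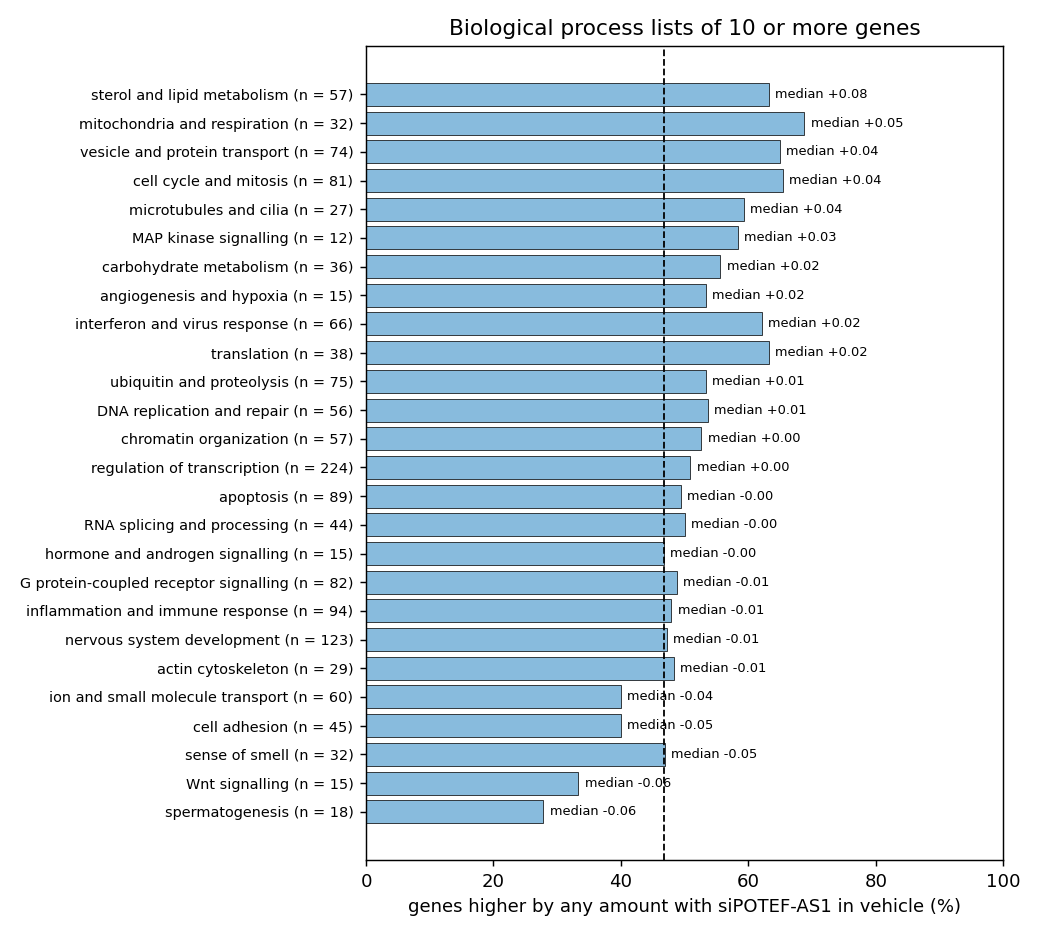
Percent of genes higher by any amount with siPOTEF-AS1 in vehicle for GO lists of 10 or more genes, with the median log2 difference at each bar and a dashed line at the 46.8% of all 2447 genes. Bars run from 27.8% for spermatogenesis to 68.8% for mitochondria and respiration, and the medians from -0.06 to 0.08.

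Below the floor the largest upward differences were RNA5SP513 (4.60 and 5.76), PSG1, a pregnancy-specific glycoprotein gene (3.84 and 4.97), and the Y RNA pseudogene RNY3P3 (2.91 and 4.01), which differed by 1.17, 1.13 and 1.10. RNA5SP180 (0.93) and RNA5SP454 (0.92) followed. Downward after SETD5-AS1 came RNA5SP449 (-0.93), SLFNL1 (-0.86), RNA5SP345 (-0.85) and OR8B1P (-0.83). None of these 10 was 1.5-fold the same way in DHT. For RNA5SP513 the siControl vehicle array was the low one, with 5.96 and 5.80 in DHT.

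Markers that define the cell type were few under a symbol. Of 14 luminal prostate markers 1 was measured, POTEF, and of 4 basal markers 2, KRT5 and KRT15. KRT5, a basal keratin gene, had 6.57 in siControl vehicle, 5.98 in siPOTEF-AS1 vehicle, 6.53 in siControl DHT and 6.47 in siPOTEF-AS1 DHT, lowest on the array that was low for 5S RNA. The summed linear signal of both basal markers was 140 and 102 in vehicle and 134 and 137 in DHT. Both genes had means below the floor, where levels were not shown to be above background. None of the 11 stromal, endothelial and leukocyte markers was measured by name, so the labelled cell line was not checked further. Fewer cells of a kind and less RNA per cell cannot be told apart in such bulk samples.

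A test was possible only with all 4 arrays, for the knockdown effect averaged over vehicle and DHT. A linear model of siRNA and hormone fitted with limma to all 33297 probe sets, with 1 residual degree of freedom and the same effect assumed with both treatments, called 0 probe sets past a Benjamini-Hochberg adjusted p of 0.05 (0.0%). At an unadjusted p under 0.05 it held 1384 of the 33297 probe sets, and 72 of the 2447 genes described here. Both are below the share of 0.05 that such a threshold passes on average when nothing differs. The mean knockdown difference was 0.64 for CDK19 (limma unadjusted p = 0.00347), -0.72 for SVIP (limma unadjusted p = 0.00229) and -0.62 for ANKRD20A9P (limma unadjusted p = 0.00368), each with an adjusted p of 1. These genes were picked because they passed 1.5-fold the same way in both of 2 pairs, on the same 4 arrays that the model averages. Their shared direction was fixed by that choice, and low unadjusted p-values were favoured by it, so neither is further evidence. They failed the correction. RNY4P26, picked by the same rule but with all 4 values below the floor, had a limma unadjusted p of 0.00189. ID2, picked for its large vehicle difference, had a mean difference of 0.58 with a limma unadjusted p of 0.0296.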

How the data were processed

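RNA of LNCaP cells was measured on 4 Affymetrix arrays, 1 for each pairing of siRNA and hormone. The log2 signals per probe set deposited by the authors come from RMA in Affymetrix Expression Console, as the processing notes of the submitters list without versions. RMA corrects background, equalises the array distributions and combines probes, so a change in total RNA per cell is removed and dim differences are compressed. A second deposited table held the same log2 values to within 1.78e-15. No detection calls or scanner values were used. Having 4 arrays limits the precision.

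Probe sets with 1 symbol were kept (2540), those with several (55) or none (30702) were left unnamed, and the probe set with the highest 4-array mean represented each gene. For 78 genes with more than 1 probe set the vehicle differences had a median gap of 0.02 and a largest of 0.83. GO terms of 98 genes were not analysed here. Symbols and GRCh37 coordinates are those of the table, and promoters are from RefSeq GRCh38.p14, used for sequence alone.

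With 1 array a side no single pair could be tested. A call means 1.5-fold or more. The additive model was fitted with limma 3.58.1 in R 4.3.3 and was tested on simulated data; other steps used Python 3.11.15 with pandas 2.3.3. Alternatives were arrays centred on their medians, quantile normalisation again, an intensity trend removed, the median instead of the brightest probe set, filters on signal and other folds. Genes named are up to 15 in each direction at or above the floor, up to 5 below it, those 1.5-fold the same way with both treatments, up to 3 of the largest per list of 3 or more genes, and all genes of a few short lists. A gene named beyond these was chosen after its values were seen, and some results that the rule covers are not reported here. The genes, the 55 lists, the fold and the rules were chosen with earlier results of these data known, and the keywords of 4 GO lists were narrowed after the terms were read.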

Additional observations from a re-analysis of the deposited data

Results flagged for a closer look

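In 4 genes both pairs differed by at least 1.5-fold with opposite signs, and the difference between the pairs was not tested. PSG1 was 1.13 in vehicle and -0.73 in DHT on the log2 scale. RNY3P6, a Y RNA pseudogene, was 0.88 and -0.87. The 5S ribosomal RNA copies RNA5SP449 and RNA5SP30 were -0.93 and 1.47, and -0.66 and 0.78. All 4 had means below the signal floor of 6.44, where levels were not shown to be above background.

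Among 13472 annotated probe sets without a single symbol and with means at or above the floor, which the comparisons above leave out, 6 were at least 2-fold lower with knockdown in vehicle and 0 were higher. At 1.5-fold 42 were higher and 63 lower. Among the 1224 single-symbol genes at or above the floor, 3 were 1.5-fold higher (0.245%) and 8 lower (0.654%). Over all probe sets the shares were 1.72% and 1.88%. The balance between higher and lower was not tested.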

How the results depend on the processing

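No paired analysis was possible because each group held 1 array and the labels give no replicate numbers; leaving out an array was not run, since it ends the pair and leaves the model no residual degree of freedom. Of the 18 higher and 38 lower genes at 1.5-fold, centring each array gave 28 and 25, with all 18 and 25 shared. A filter at the median signal left 3 and 8, and one at the 75th percentile 3 and 2. At 2-fold there were 3 and 1, and at 1.3-fold 67 and 150. Quantile normalisation again gave 21 and 28, removal of the intensity trend 21 and 28, and the median probe set 18 and 37. The largest move of a named gene was 0.07 over 123 values, with 0 reversed. Among named genes at or above the floor, 4 lost 1.5-fold under some scaling. ZDHHC20 did with quantile normalisation again (0.57) and the trend removed (0.55), ANKRD20A9P with centring (-0.54) and quantile normalisation again (-0.58). RNA5SP116 (-0.58 to -0.56) and RNA5SP218 (-0.57 to -0.55) did under all 3. ARPC3P1 passed it under all 3 (0.59 to 0.60), LCN2 with quantile normalisation again and the trend removed (-0.62 each) and GNAQ with centring (0.59). CDK19 stayed between 0.65 and 0.75 and SVIP between -0.71 and -0.61 under the 3 scalings. The limma fit called 0 probe sets under each of 4 alternatives, with a smallest adjusted p of 0.0847, with arrays centred. At an unadjusted p under 0.05 it held between 823 (of 16649 probe sets) and 1518 (of 33297), again below a share of 0.05. Signal limits the rest, since 15 of the 18 higher and 30 of the 38 lower genes had means below the floor.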

Other observations

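The list of autophagy, by which cells digest their own contents, held 7 genes, all at or above the floor and all higher with knockdown in vehicle, with a median log2 difference of 0.25 and none past 1.5-fold. It was singled out after its values were seen, and its median was the highest of the 29 GO lists. Of all genes at or above the floor, 50.1% were higher by any amount in vehicle. VTI1B, a SNARE gene, had 8.52 in siControl vehicle and 8.80 in siPOTEF-AS1 vehicle, and ATG16L1, part of the complex that lipidates LC3, had 7.36 and 7.63. RAB24, a small GTPase gene, had 9.07 and 9.32, and ATG5, the partner of ATG16L1, had 8.77 and 9.02. ULK3, PLEKHF1 and WAC were 0.13, 0.09 and 0.02 higher. In DHT the median was 0.09 with 6 of the 7 higher, and VTI1B was -0.37. All 7 stayed higher in vehicle under each of 3 scalings, which reuse the same arrays and are not further measurements.

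The 3 largest differences among translation genes were RPL13 (0.24 in vehicle and -0.06 in DHT), RPL37 (0.21 and -0.09) and RRBP1, a ribosome-binding protein gene of the endoplasmic reticulum (0.20 and 0.25). Their order is by size in vehicle, and signs in DHT were mixed.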
